A study of Rattus norvegicus with 11 samples.

Results

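The mitochondrial ribosome genes were read from liver arrays of Wistar rats given mequindox, a synthetic quinoxaline antibacterial used in livestock. The members were all probe sets whose only gene symbol in the platform annotation began with Mrpl or Mrps and a digit, which gave 97 of the 31099 probe sets on the array. These stood for 73 genes of the 14218 with a single-symbol probe set, 27 of them named for the small subunit (Mrps) and 46 for the large subunit (Mrpl). Where a gene had several probe sets, the one with the highest mean signal over all arrays was used. All 73 genes passed the filter on dim probe sets, so no member was left out of the tests.

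The control group held 3 animals (numbers 1, 2 and 9) and the high-dosed group held 8 animals (numbers 2, 3, 4, 5, 6, 8, 10 and 11), with 1 array of liver RNA per animal. All animals were Wistar rats, and all were labelled week 9 in age except high-dosed animal 8, labelled week 10. The amount of mequindox and the duration of dosing are not given in the sources used here. Both groups had been picked for arrays from metabolite profiles of liver extracts and from clinical chemistry, so the animals were not an unselected sample. P-values set the difference between the groups against the spread between these animals.

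The mitochondrial ribosome translates the few messages encoded by mitochondrial DNA, all of them for subunits of the respiratory chain and ATP synthase. Its RNA comes from mitochondrial DNA, whereas all its proteins are encoded in the nucleus, made in the cytosol and imported. Compared with the bacterial ribosome it carries less RNA and many added proteins; the small subunit holds the decoding site, and the large subunit holds the site of peptide bond formation and the tunnel through which the new chain leaves.

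Mitochondrial ribosome genes differed little between high-dosed and control livers. At an adjusted p below 0.05 in limma, Mrpl57, a protein of the large subunit with no bacterial counterpart, was the 1 member called as deposited. It rose, and no member fell. That is 1 of 73 members (1.37%), against 10.6% of the 10714 genes tested, of which 7.91% were called higher and 2.74% lower. At an unadjusted p below 0.05, 4 members were higher and 8 lower, together 16.4% of members against 25.7% of all genes. The median log2 fold change (high-dosed minus control) of the 73 members was -0.017, beside 0.017 for all genes tested.

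The brightest Mrpl57 probe set, 1372948_at, gave intensities of 1934, 2057 and 1907 in control animals 1, 2 and 9, and from 2310.3 to 2639 in the high-dosed animals with a median of 2488. Every high-dosed animal lay above every control. The log2 fold change was 0.32 ± 0.057 (SE; 95% interval 0.20 to 0.44), which is 1.25-fold (1.15 to 1.36), with a limma adjusted p of 0.00509. After quantile normalization it was 0.30 ± 0.054 (limma adjusted p = 0.00582). The call was kept when each of the 11 arrays was left out in turn, with log2 fold changes from 0.30 to 0.35 and limma adjusted p up to 0.0343.

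A further probe set annotated to Mrpl57, 1375718_at, did not show this. It read 892, 830 and 862 in the controls and from 749 to 978 in the high-dosed animals, so that the groups overlapped, and its log2 fold change was -0.014 ± 0.083. With the mean of both probe sets in place of the brighter one, Mrpl57 had a log2 fold change of 0.15 and was no longer called (limma adjusted p = 0.155). Which part of the transcript each probe set reads was not analysed here.

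**Figure D1:**
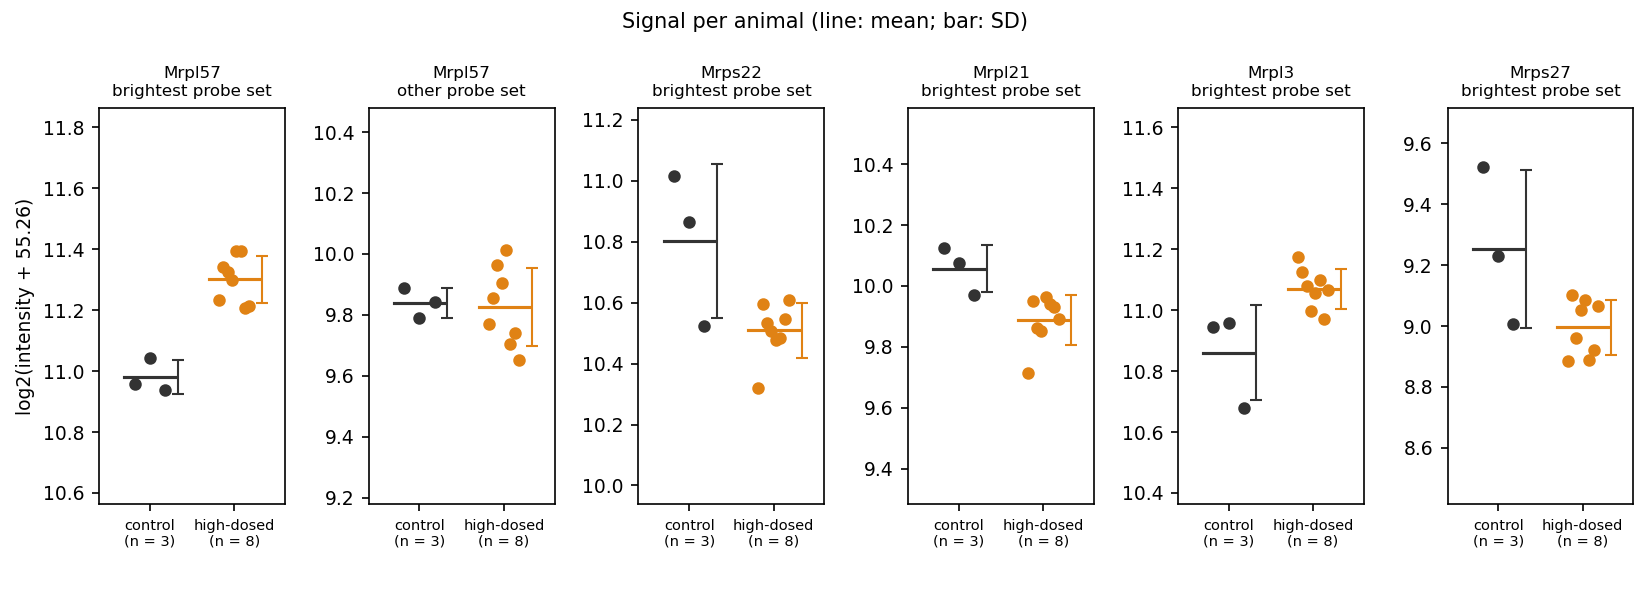
Log2 signal of Mrpl57 (both probe sets), Mrps22, Mrpl21, Mrpl3 and Mrps27 in each animal, with points for single arrays, a line for the group mean and a bar for 1 SD (3 controls, 8 high-dosed). The brightest Mrpl57 probe set separates the groups while the other one overlaps, and for Mrps22 and Mrps27 control 9 lies among the high-dosed animals.

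Promoters are shown for Mrpl57, as the called member, and for Mrpl48 and Mrps27, which were added after their values were seen because they had 2 of the 3 lowest log2 fold changes. Those of Mrpl3 and Mrpl47, with 2 of the 3 highest, are described below but not printed. No promoter was listed for Mrps22 or Mrpl21. Each line gives the 250 bases before the annotated gene start, 5′ to 3′ on the gene's strand, from RefSeq on assembly GRCr8; capitals mark matches to the motifs named in the next paragraph. The stretches lie at chr15:36086207-36086456 (plus strand) for Mrpl57, chr1:164351377-164351626 (minus strand) for Mrpl48 and chr2:32473954-32474203 (plus strand) for Mrps27.
Mrpl57: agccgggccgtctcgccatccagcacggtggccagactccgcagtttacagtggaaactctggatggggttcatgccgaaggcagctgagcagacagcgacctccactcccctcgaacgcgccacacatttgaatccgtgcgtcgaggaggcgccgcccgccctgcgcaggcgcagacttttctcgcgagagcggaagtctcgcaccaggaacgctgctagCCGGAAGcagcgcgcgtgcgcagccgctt
Mrpl48: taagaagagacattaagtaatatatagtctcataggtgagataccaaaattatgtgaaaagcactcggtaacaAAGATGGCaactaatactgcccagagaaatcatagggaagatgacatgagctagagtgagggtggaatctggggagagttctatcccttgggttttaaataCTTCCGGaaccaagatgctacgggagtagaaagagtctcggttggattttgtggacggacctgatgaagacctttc
Mrps27: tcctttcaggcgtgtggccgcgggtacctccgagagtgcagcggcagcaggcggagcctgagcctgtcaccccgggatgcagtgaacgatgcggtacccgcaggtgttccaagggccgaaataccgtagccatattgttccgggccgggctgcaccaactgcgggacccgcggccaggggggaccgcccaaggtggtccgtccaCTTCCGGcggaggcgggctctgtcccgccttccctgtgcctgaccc

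Ribosomal protein genes of mitochondria often have promoters with sites for ETS family factors such as GABPA, for NRF1 and for YY1. A promoter (300 bases, 250 before to 50 after the start) was listed for 59 of the 73 members and for 8941 of the genes tested. The letters searched on both strands were CCGGAAG for ETS factors, AAGATGGC for YY1, the palindromic core of the NRF1 site and TATAAA for the TATA box. The ETS letters were present in 20 of 59 member promoters (33.9%), beside 17.7% of the genes tested and 9.22% of all 27457 promoters. The YY1 letters were present in 14 (23.7%), beside 5.58% and 3.44%, and the NRF1 letters in 4 (6.78%), beside 1.9% and 0.932%. TATAAA was present in 7 (11.9%), beside 7.07% and 14.3%.

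Member promoters thus held the ETS, YY1 and NRF1 letters in larger shares than the genes tested did, although their median GC content was 56% against 60.7%. At least 1 of those 3 motifs stood in 31 of 59 member promoters (52.5%), beside 23.2% of the genes tested. Both subunits held the ETS letters in like shares, 33.3% of 21 small-subunit and 34.2% of 38 large-subunit promoters. Promoters of 5 members held both ETS and YY1 letters, and in 0 of them did the matches overlap.

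In Mrpl57 the ETS match began 29 bases before the start. Mrpl48 had an ETS match 76 bases and a YY1 match 177 bases before it, and Mrps27 had an ETS match 46 bases before the start and a YY1 match 30 bases after it, outside the printed stretch. Of the promoters not printed, that of Mrpl3 had an ETS match 11 bases after the start and TATAAA 250 bases before it. The promoter of Mrpl47 held none of the motifs searched. The median log2 fold change was -0.0097 for the 20 members with the ETS letters and -0.041 for the 39 without, and -0.030 for the 14 with the YY1 letters and -0.011 for the 45 without. A match describes these letters only.

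**Figure D2:**
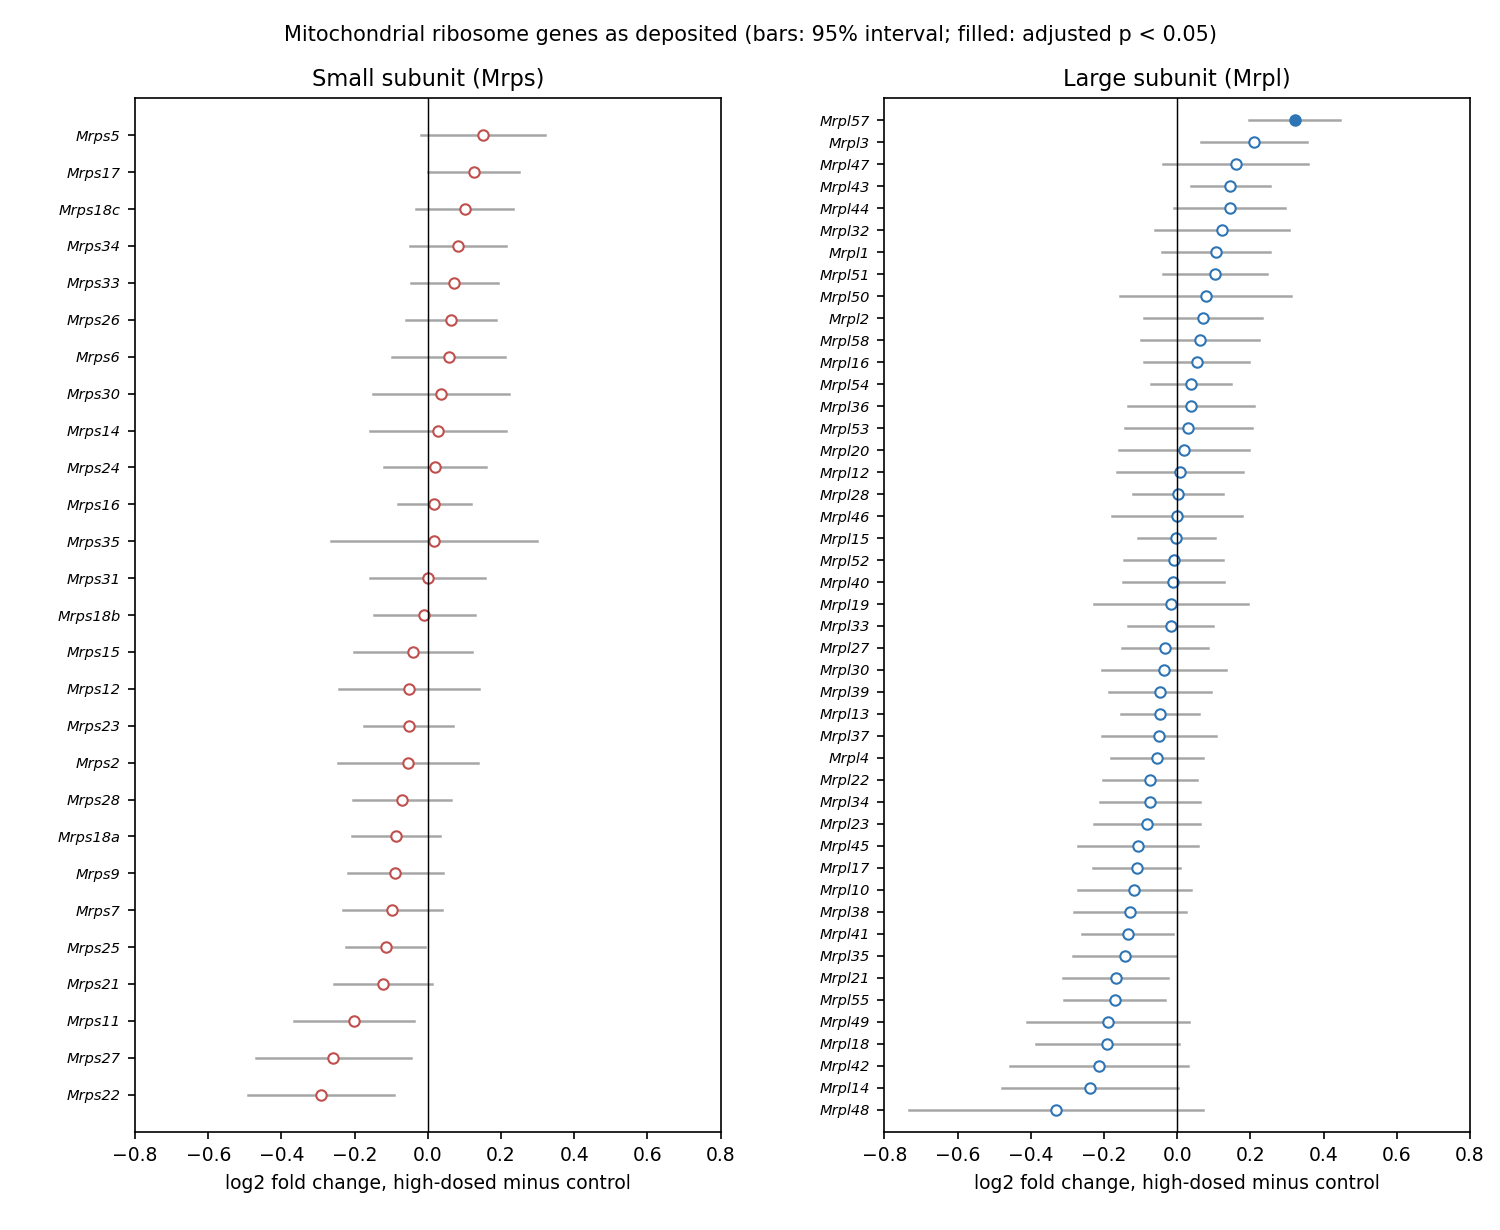
Log2 fold change of each mitochondrial ribosome gene, high-dosed minus control, as deposited, ranked within the small subunit (27 genes) and the large subunit (46 genes). Points are limma estimates, bars are 95% intervals and filled points have an adjusted p below 0.05, which is Mrpl57 alone.

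The small subunit had 0 of 27 members called by limma as deposited, beside 10.6% of all genes tested. It had 5 at an unadjusted p below 0.05 (18.5%, beside 25.7% of all genes). Its log2 fold changes ran from -0.29 to 0.15 with a median of -0.0093, 12 of them above and 15 below 0. The lowest was that of Mrps22, a protein added in mitochondria. Its intensities were 2016, 1811 and 1416 in controls 1, 2 and 9, and ran from 1223 to 1507 with a median of 1413 in the high-dosed animals. Controls 1 and 2 lay above all high-dosed animals, and control 9 lay among them.

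The log2 fold change of Mrps22 was -0.29 ± 0.092 (limma adjusted p = 0.0614), with all 8 high-dosed animals below the control mean. After quantile normalization Mrps22 passed the test, at -0.32 ± 0.089 (limma adjusted p = 0.0438). After median centring it was not called (limma adjusted p = 0.0665). Without control 9 it was -0.43 and called (limma adjusted p = 0.00996), and without control 1 it was -0.19 and not called (limma adjusted p = 0.351). Within animal numbers 6 and below it was -0.45 and called (limma adjusted p = 0.0257), and within numbers 8 and above, where control 9 was the only control, it was 0.023.

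Mrps27, a pentatricopeptide repeat protein of the small subunit, read 681, 545 and 459 in controls 1, 2 and 9, and from 418 to 494 with a median of 460 in the high-dosed animals. Here too control 9 lay among the high-dosed animals while the other controls lay above them. Its log2 fold change was -0.26 ± 0.098 (limma adjusted p = 0.113), and its other probe sets gave -0.20 and -0.16. Without control 9 it was -0.38 and called (limma adjusted p = 0.034), without control 1 it was -0.12 (limma adjusted p = 0.567), and within numbers 8 and above it was -0.049.

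Among other proteins of the small subunit, Mrps11, whose bacterial counterpart sits on the platform of the subunit, had a log2 fold change of -0.20 ± 0.076 (limma adjusted p = 0.11). Mrps12, the counterpart of the bacterial protein at the decoding site, was at -0.052 ± 0.089. Mrps5, a further conserved protein, had the highest value of the subunit, 0.15 ± 0.078 (limma adjusted p = 0.255). Mrps25, an added protein, stood at -0.12 ± 0.050 and was not called (limma adjusted p = 0.167), although its high-dosed animals (1309 to 1429) all lay below the controls (1447 to 1540.2). These genes apart from Mrps12 were singled out after their values were seen.

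Large-subunit members ran from -0.33 to 0.32 in log2 fold change with a median of -0.017, 18 above and 28 below 0. Limma called 1 of 46 (2.17%), Mrpl57, beside 10.6% of all genes. An unadjusted p below 0.05 was found for 7 (15.2%, beside 25.7%). Around the site of peptide bond formation, Mrpl3 read 1916, 1934 and 1585 in controls 1, 2 and 9, and from 1953 to 2257 with a median of 2098 in the high-dosed animals. Every high-dosed animal lay above every control, by a narrow margin over control 2. Its log2 fold change was 0.21 ± 0.067 and was not called (limma adjusted p = 0.0644); with a block for animal number (6 and below, or 8 and above) it was called, at 0.21 (limma adjusted p = 0.0392). It was not called after quantile normalization, where its groups overlapped (0.19, limma adjusted p = 0.108), nor without control 9 (0.12, limma adjusted p = 0.272).

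Mrpl27, whose bacterial counterpart reaches into the same site, was at -0.033 ± 0.054. It read 4119, 4222 and 3857 in the controls and 3664 to 4259 in the high-dosed animals, with full overlap. Of the proteins at the exit tunnel, Mrpl47 was at 0.16 ± 0.092 (limma adjusted p = 0.307), and Mrpl45, which tethers the ribosome to the inner membrane, at -0.11 ± 0.076 (limma adjusted p = 0.417). Of the stalk that recruits translation factors, Mrpl10 was at -0.12 ± 0.071 and Mrpl12 at 0.0072 ± 0.079.

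Mrpl21, which has a bacterial counterpart, read 1060.0, 1023 and 949 in controls 1, 2 and 9, and from 785 to 944 with a median of 908 in the high-dosed animals. The groups did not overlap, though control 9 and the highest high-dosed animal were close. The log2 fold change was -0.17 ± 0.066 as deposited (limma adjusted p = 0.128) and -0.22 ± 0.062 after quantile normalization, where the gene passed the test (limma adjusted p = 0.046). It did not pass after median centring (limma adjusted p = 0.117), and was at -0.050 within animal numbers 8 and above.

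The central protuberance, the top of the large subunit that faces the small one, is built in part by Mrpl38, Mrpl40, Mrpl46 and Mrpl48. Mrpl48 had the lowest log2 fold change of all members and the largest error, -0.33 ± 0.19 (95% interval -0.73 to 0.070; limma adjusted p = 0.292). Its controls read 790.2, 826 and 689.9, and its high-dosed animals ran from 355 to 789 with a median of 639. High-dosed animals were spread from far below the controls to among them, and its SD over the 11 arrays, 0.338 in log2, was the highest of the 73 members. Mrpl38 was at -0.13 ± 0.071, Mrpl40 at -0.011 ± 0.064 and Mrpl46 at -0.00041 ± 0.082, all not called.

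Mrps30 and Mrps18a carry small-subunit names but sit in the large subunit of the mammalian mitochondrial ribosome. Mrps30 was at 0.036 ± 0.086 and Mrps18a at -0.087 ± 0.055, neither called (limma adjusted p = 0.827 and 0.355). With both moved to the large subunit, the medians stayed at -0.0093 for 25 small-subunit and -0.017 for 48 large-subunit genes. Among the 41 members sorted as having a bacterial counterpart limma called 0, and the median was -0.033. An unadjusted p below 0.05 was found for 5 of them (12.2%). Among the 29 sorted as proteins added in mitochondria limma called 1 (3.45%), and the median was -0.00071. An unadjusted p below 0.05 was found for 6 of them (20.7%). Over all genes tested 10.6% were called and 25.7% had an unadjusted p below 0.05. Mrps18a, Mrps18b and Mrpl55 were left out of this split. Their log2 fold changes were -0.087, -0.0093 and -0.17, and none was called.

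Limma intervals use 1 spread for both groups, although the groups differed in spread. The mean over all members had an SD of 0.085 in controls against 0.034 in high-dosed animals. In log2 the SD of Mrps22 was 0.253 in controls against 0.0901, and that of Mrpl49 0.0173 against 0.178. Intervals may thus understate the uncertainty for members whose controls spread widely. The 95% intervals of the log2 fold changes had a median half-width of 0.14 and a range of half-widths from 0.10 to 0.40, and lay within 0.5 of 0 for 72 of the 73 members, the exception being Mrpl48. The spread of members' log2 fold changes was an SD of 0.12, beside 0.23 over all genes tested. The groups did not overlap in 5 members (6.85%), 3 above the controls (Mrpl3, Mrpl43 and Mrpl57) and 2 below (Mrpl21 and Mrps25), against 12.1% of all genes (8.69% above and 3.37% below). After quantile normalization the groups did not overlap in 4 members (Mrpl57 above, and Mrpl21, Mrpl55 and Mrps25 below), against 11.1% of all genes (6.94% above and 4.16% below). The brightest probe sets were those of Mrpl27, Mrps16 and Mrpl33, with log2 fold changes of -0.033, 0.018 and -0.017, and the dimmest those of Mrps27, Mrpl38 and Mrpl45.

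Scaling between arrays moved every member in the same direction. After quantile normalization all 73 members had a lower log2 fold change than as deposited, by a median of -0.026 (-0.052 to -0.010), beside a median of -0.019 over all genes, 68.3% of which were lower. Limma then called 3 members of 73, Mrpl57 higher and Mrps22 and Mrpl21 lower (4.11%), against 8.62% of 10712 genes, of which 5.52% were higher and 3.10% lower. At an unadjusted p below 0.05 it found 19 of 73 members, beside 25.5% of genes.

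Negative log2 fold changes numbered 43 of 73 as deposited (58.9%, beside 46.1% of all genes) and 46 after quantile normalization (63.0%, beside 49.0%). The member median moved to -0.048 after quantile normalization and to -0.038 after median centring. The small-subunit median moved from -0.0093 to -0.046 and the large-subunit median from -0.017 to -0.054 with quantile normalization, while the median of all genes moved to 0.0045.

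**Figure D3:**
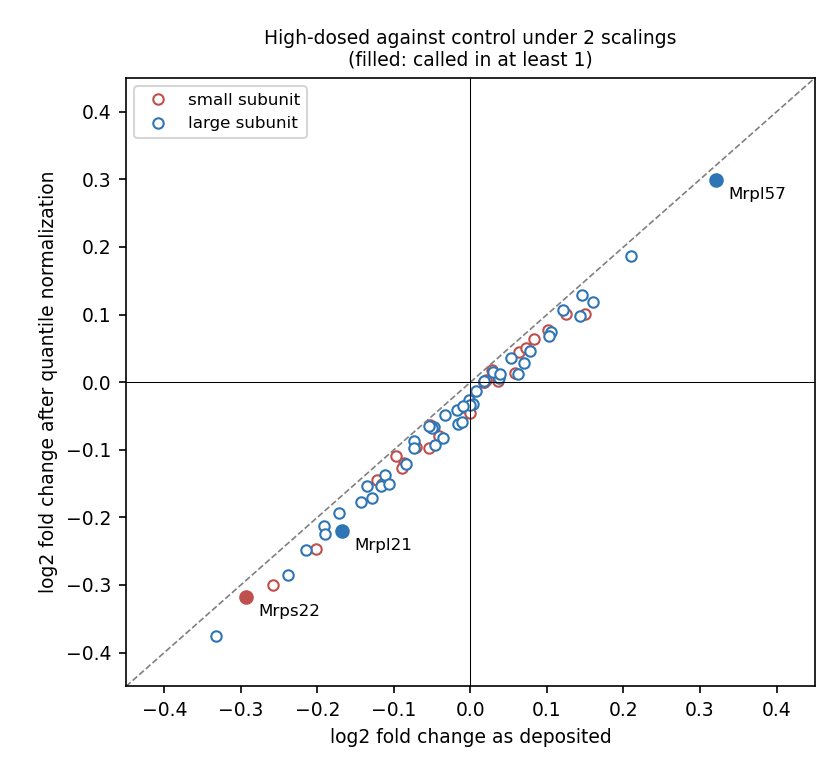
Log2 fold change (high-dosed minus control) of each mitochondrial ribosome gene as deposited (horizontal axis) against the same after quantile normalization (vertical axis). Filled points were called under at least 1 of the scalings; all 73 points lie below the line of equality.

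Small and large subunit were compared within each animal, as the mean log2 level of each subunit's genes relative to the 11 arrays. The large-minus-small difference was -0.0034 ± 0.022 (SD, n = 3) in controls and 0.0013 ± 0.017 (SD, n = 8) in high-dosed animals. The groups thus differed by 0.0046 as deposited and by 0.0022 after quantile normalization, both less than the spread between animals of a group. In each animal except high-dosed animal 6 (-0.0065 for the small and 0.010 for the large subunit), both subunits lay on the same side of 0.

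The mean over all 73 members was 0.070 in control 1, 0.066 in control 2 and -0.080 in control 9, and ran from -0.058 to 0.045 with a median of -0.018 in the high-dosed animals. The controls were spread more widely than the high-dosed animals, with controls 1 and 2 above all of them and control 9 below all of them. Control 9 was the lowest of the 11 animals for 20 members and high-dosed animal 2 for 19; control 1 was the highest for 15.

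The members' counts and median changed with the control left out. Without control 9, limma called 4 members lower (Mrps22, Mrps27, Mrps11 and Mrpl14) and Mrpl57 higher, against 2.42% of genes called lower and 5.11% called higher (7.54% in all), and the member median was -0.070 with 52 of 73 members below 0. Without control 1 the calls were those as deposited in number (1 higher, 0 lower), but the member median was 0.0073 with 34 members below 0. Within animal numbers 8 and above the median was 0.040 with 27 below 0, so the lean to negative values turned in both settings. Control 9 was also the only control with an animal number of 8 or above. Whether its low level belongs to the animal, the array or a group of animals handled together was not tested.

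**Figure D4:**
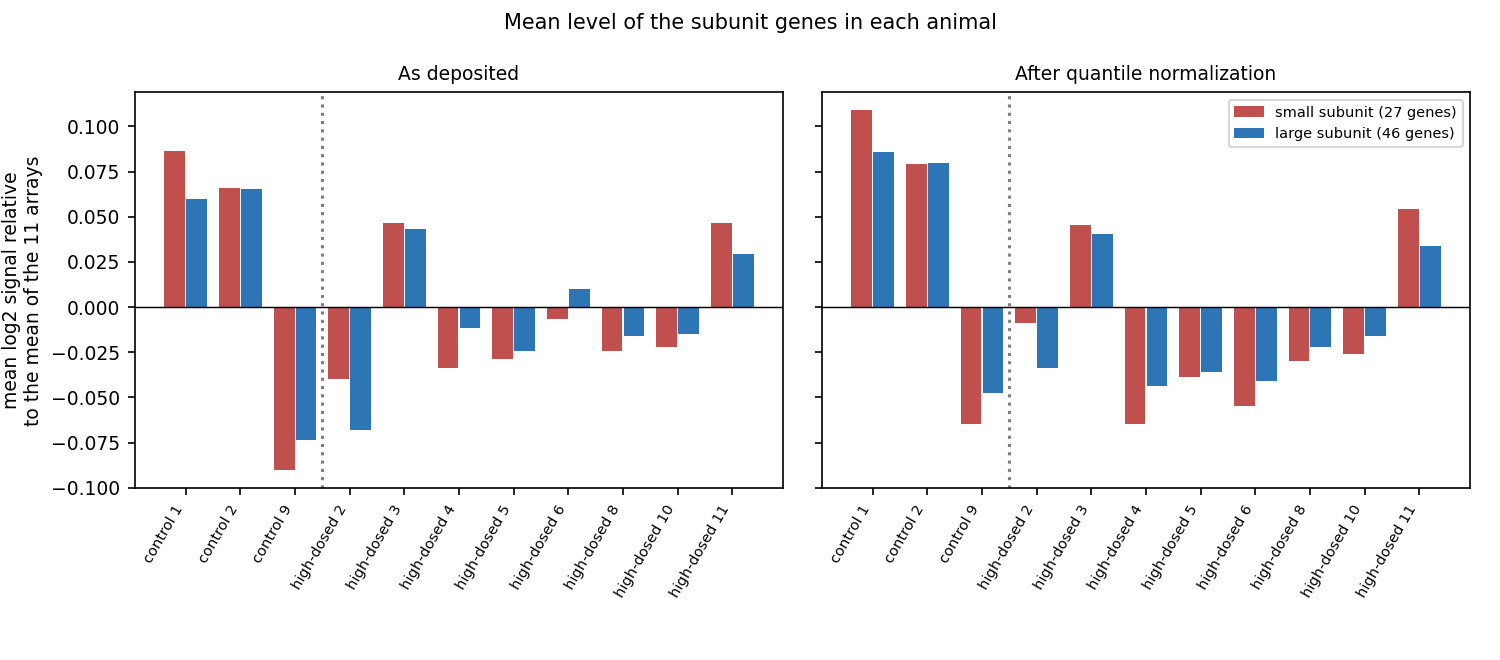
Mean log2 level of the 27 small-subunit and 46 large-subunit genes in each animal relative to the mean of the 11 arrays, as deposited and after quantile normalization. Controls 1 and 2 lie above and control 9 below the high-dosed animals as deposited, and the subunits of an animal lie close together.

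Across the 11 arrays, members tended to vary together weakly: the median pairwise Pearson r was 0.205 over all members, 0.227 within the small subunit, 0.184 within the large subunit and 0.223 between them. Within the 8 high-dosed animals the median was 0.125. These correlations are over arrays that share their scaling, and are a description. The SD over the arrays had a median of 0.101 in log2 over members, and was lowest for Mrpl13 at 0.0482.

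Of the 73 members, 18 had several probe sets, and in 7 of these the probe sets differed in the sign of the log2 fold change. Besides Mrpl57 these were Mrpl12 (0.0072 and -0.22), Mrpl40 (-0.011 and 0.17), Mrps14 (0.028 and -0.23), Mrpl51 (0.10, 0.053, -0.10 and -0.017), Mrps18c (0.10, -0.071 and -0.10) and Mrps26 (0.064 and -0.019), with the brightest probe set given first. In Mrps18c and Mrps26 the last value came from a probe set below the signal filter. Mrpl49 had probe sets at -0.19 and -0.40; their mean was -0.30 and was called (limma adjusted p = 0.0499).

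Genes that act with the ribosome were read from lists of related genes. One list held 5 mitochondrial ribosome proteins with other names (Dap3, Ptcd3, Aurkaip1, Chchd1 and Gadd45gip1) and Kgd4, once named as a ribosomal protein and known as a subunit of the 2-oxoglutarate dehydrogenase complex. Of these 6 genes limma called 0, with 1 at an unadjusted p below 0.05 (16.7%) and a median log2 fold change of 0.012. A further list held 16 genes for charging mitochondrial transfer RNAs, 13 aminoacyl-tRNA synthetases and 3 subunits of the glutamyl-tRNA amidotransferase (Gatb, Gatc and Qrsl1). Limma called 0 of these 16, with 1 at an unadjusted p below 0.05 (6.25%) and a median of 0.012. Over all genes tested 10.6% were called and 25.7% had an unadjusted p below 0.05.

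Of 14 translation factors and ribosome partners tested, 3 rose and 1 fell (21.4% and 7.14%, beside 7.91% and 2.74% of all genes), with a median of 0.12. Of the 14, 8 had an unadjusted p below 0.05 by limma (57.1%, beside 25.7%). Mtfmt, which formylates the initiator transfer RNA, read 698, 749 and 651 in controls 1, 2 and 9 and from 789 to 1052 with a median of 935 in the high-dosed animals, with no overlap. It rose by 0.37 ± 0.080 in log2 (limma adjusted p = 0.0125). Mtif2, the initiation factor, was at 0.34 (limma adjusted p = 0.0393) and Mtrfr, a rescue factor for stalled ribosomes, at 0.26 (limma adjusted p = 0.0458). Letm1, an inner membrane protein that binds the ribosome, fell by 0.37 ± 0.081 (log2 fold change -0.37, limma adjusted p = 0.0133).

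Of 27 genes for ribosome assembly and ribosomal RNA modification tested, 2 rose and 1 fell (11.1% called, beside 10.6% of all genes), with a median of 0.074. Of the 27, 8 had an unadjusted p below 0.05 by limma (29.6%, beside 25.7%). Rbfa, an assembly factor of the small subunit, read 1183, 1467 and 1302 in the controls and from 718 to 914 with a median of 819 in the high-dosed animals. The groups lay far apart, and Rbfa fell by 0.66 ± 0.082 in log2 (limma adjusted p = 0.000755). Ngrn, needed for the large ribosomal RNA, was at 0.37 ± 0.070 (limma adjusted p = 0.00728), and Grsf1, an RNA-binding protein of mitochondrial RNA granules, at 0.20 ± 0.048 (limma adjusted p = 0.022). Both rose.

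Of 19 genes for synthesis of mitochondrial DNA and RNA, 2 rose and 0 fell by limma (10.5% called, beside 10.6% of all genes). An unadjusted p below 0.05 was found for 5 (26.3%, beside 25.7%), and the median was 0.047. Twnk, the replicative helicase, rose by 0.50 ± 0.082 (limma adjusted p = 0.0035) and Polg, the DNA polymerase, by 0.33 ± 0.069 (limma adjusted p = 0.0108).

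Of 10 nuclear regulators of mitochondrial genes, 3 rose and 0 fell by limma (30.0% higher, beside 7.91% of all genes). An unadjusted p below 0.05 was found for 4 (40.0%, beside 25.7%), and the median was 0.16. Ppargc1a, a coactivator of mitochondrial gene programmes, read 112, 128 and 182 in controls 1, 2 and 9 and from 265 to 489 with a median of 318 in the high-dosed animals, all above the controls. It rose by 0.99 ± 0.14 in log2 (limma adjusted p = 0.00182). Sp1 was at 0.35 ± 0.050 (limma adjusted p = 0.00173) and Yy1 at 0.24 ± 0.062 (limma adjusted p = 0.0282); both are transcription factors, and both rose.

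The calls of Rbfa, Twnk, Sp1 and Ppargc1a were kept when each single array was left out. The other 8 related genes lost theirs without control 1, with limma adjusted p from 0.0547 to 0.123 and log2 fold changes of 0.37 for Mtfmt, 0.40 for Mtif2, 0.30 for Mtrfr, -0.33 for Letm1, 0.33 for Ngrn, 0.18 for Grsf1, 0.31 for Polg and 0.25 for Yy1. Mtif2 and Mtrfr were each lost in 9 of the 11 omissions, and also after quantile normalization (limma adjusted p = 0.0658 and 0.0765). Grsf1 was lost without control 2 as well, and Mtfmt and Yy1 without control 9. Polg and Yy1 also lost their calls with the mean of their probe sets, at 0.18 and 0.13 (limma adjusted p = 0.234 and 0.286). Median centring also lowered the counts of limma calls. It left 1 of 14 translation factors higher and 1 lower, and 1 of 27 assembly genes higher and 1 lower. Of the 10 regulators 2 were higher and 0 lower, beside 4.41% of all genes called higher and 2.41% lower in that setting. The genes for mitochondrial DNA and RNA synthesis kept 2 called higher.

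**Figure D5:**
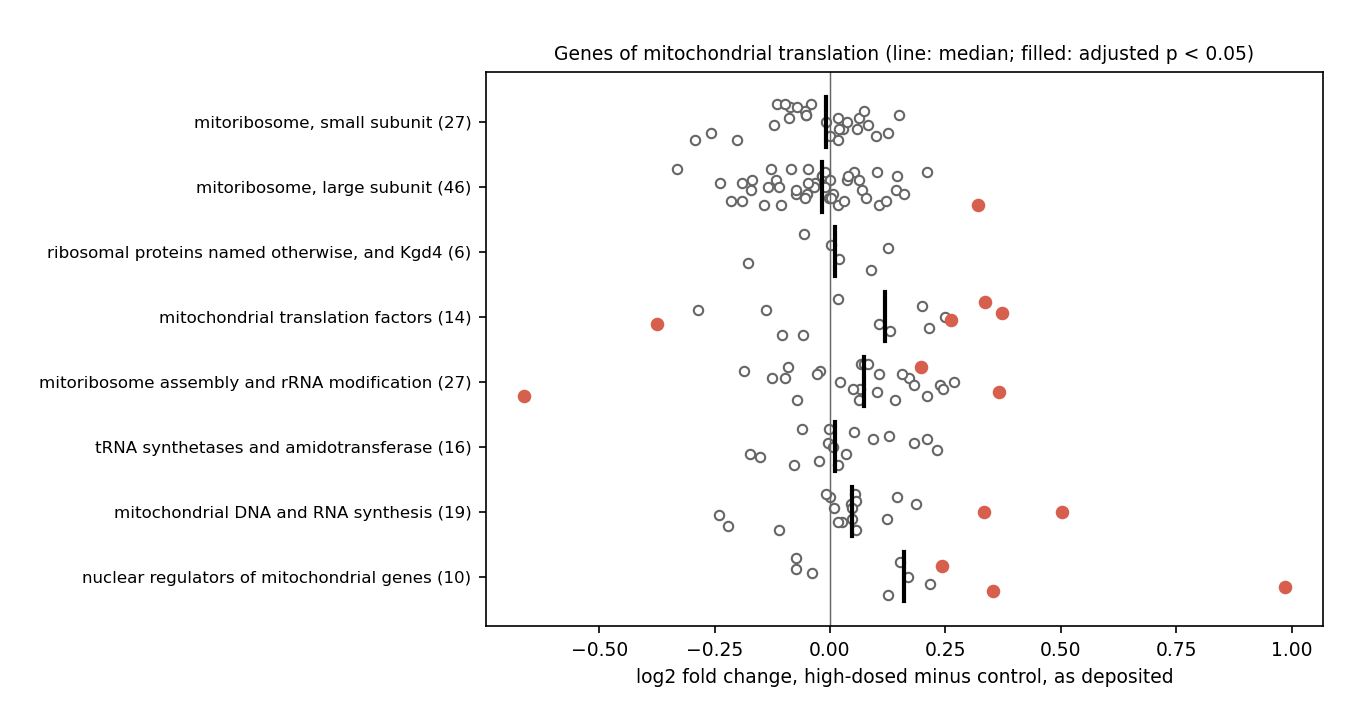
Log2 fold changes (high-dosed minus control) of the small-subunit and large-subunit genes and of 6 lists of related genes, with a point per gene, a line at each list's median and filled points for an adjusted p below 0.05. Ribosomal proteins lie close to 0, and the called genes of the other lists include Rbfa below and Ppargc1a and Twnk above.

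Genes with symbols starting with Rpl, Rps or Rplp and a digit, 47 tested, were taken as a set for cytosolic ribosomal proteins. This symbol pattern can also admit genes named after a ribosomal protein, such as kinases, and none were removed. The set had 3 called higher (6.38%, beside 7.91% of all genes) and 0 lower by limma. It had 10 at an unadjusted p below 0.05 (21.3%, beside 25.7%), and a median log2 fold change of 0.039. Nuclear genes of the respiratory chain and ATP synthase, 74 tested, had 0 called by limma (beside 10.6% of all genes), 11 at an unadjusted p below 0.05 (14.9%), and a median of -0.015.

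The arrays read whole liver, in which fewer cells of a type and less RNA per cell cannot be told apart. All 15 hepatocyte markers passed the signal filter, and their summed intensity was 266900 to 268000 in controls and 261300 to 274400 in high-dosed animals. Single hepatocyte markers differed in direction, with 5 above and 10 below 0 in log2 fold change. Apoa1 (0.35, limma adjusted p = 0.0153) was called higher and Asgr1 (-0.18, limma adjusted p = 0.0242) lower (6.67% each, beside 7.91% and 2.74% of all genes). Markers of 2 other cell types did not overlap between the groups in their sums. The 10 endothelial markers, all above the filter, summed to 11570 to 13000 in controls against 13150 to 14420, with no overlap. Of these, 8 were above 0 in log2 fold change, and 3 were called higher by limma (30.0%, beside 7.91% of all genes). Lyve1 (-0.12) and Flt1 (-0.15) were below 0. Of the 7 cholangiocyte markers, Krt19 (0.34), Krt7 (-0.026), Cftr (0.036) and Cldn4 (-0.11) lay below the filter and were not summed. The 3 summed were Epcam (0.83) and Anxa4 (0.39), both called higher, and Spp1 (0.18), not called. Their sum was 1643 to 1759 in controls against 2346 to 2861, with no overlap. The sums of the other lists overlapped, at 28000 to 35730 in controls against 34480 to 45890 for macrophage, 11260 to 12200 against 11020 to 16220 for stellate cell, 8789 to 13190 against 9702 to 19550 for erythroid and 851 to 1068 against 832 to 1095 for T and B cell markers. Of the 12 macrophage markers tested 10 were above 0, with a median of 0.27 and 1 called higher. The part of these shifts in the values of Mrpl57 and of the related genes was not tested.

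Array medians ran from 149 to 186.6 in intensity and 2% trimmed means from 504.9 to 542.9, and the number of arrays, with 3 controls, limits the precision of every value above.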

How the data were processed

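Liver RNA of 11 rats was measured on Affymetrix arrays, 1 array per animal. The deposited values are intensities per probe set on a linear scale (1 to 34328); MAS5 was used per the submitters' processing notes, with no version or role given. Scaling between arrays is not given in the sources used here, so the intensities were taken as the authors deposited them.

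After 57 Affymetrix control probe sets were left out, values were transformed as log2(intensity + 55.26), the pseudocount being the 20th percentile of all values; this understates changes of dim genes. A filter at the 40th percentile of each probe set's mean over the arrays (7.398) left 18625, and each gene's brightest single-symbol probe set was kept, giving 10714 genes. Gene symbols came from the platform annotation; all 73 members matched RefSeq (GRCr8) by Entrez identifier. Coordinates are given for the printed promoters alone, on GRCr8. None are given for probe sets, because the sources name no genome build for the array.

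High-dosed animals were compared with controls over all genes in limma 3.58.1 (R 4.3.3), with an intensity trend in the moderated variances, two-sided, with Benjamini-Hochberg adjustment; a call is an adjusted p below 0.05. The script was tested on simulated data with planted log2 changes of 0.5 and 1 in either direction and the same noise in both groups. It recovered 73.3% of changes of -0.5 and 78.3% of changes of 0.5. Smaller changes, such as those of most members, were not simulated. Alternatives were quantile normalization, median centring, other filters, pseudocounts and variance models, the mean of probe sets, animal number as a block or split, and each array left out.

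Genes named were members called under deposited or quantile-normalized values, the 3 highest and 3 lowest fold changes, the 3 brightest and 3 dimmest members, Mrps30 and Mrps18a, members whose probe sets differ in sign, and up to 4 called genes per related list. Mrps5, Mrps11, Mrps12, Mrps25, Mrpl10, Mrpl13, Mrpl14, Mrpl43, Mrpl46, Mrpl49 and Mrpl55 fall outside this rule and were named for their place in the ribosome or after their values were seen. The members and lists were chosen with earlier results of these data known, and the cytosolic ribosome and respiratory chain sets were defined after the files were read.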

Additional observations from a re-analysis of the deposited data

Results flagged for a closer look

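A high-dosed animal stood apart from the other 7 by Dixon's ratio (gap to the nearest animal over the group's range, critical value for 8 animals at 95%) in 5 of the 36 measures examined, and chance alone gives about 1 in 20 groups. These 5 ratios were computed on log2 signal, and the values here are log2 signals. High-dosed animal 2 was the lowest for Mrps22 (10.32, next 10.48; ratio 0.543), Mrpl21 (9.714, next 9.851; ratio 0.547) and Mrpl40 (9.826, next 9.95; ratio 0.532). The same animal was the highest for Mrpl38 (9.439, next 9.306; ratio 0.527). High-dosed animal 4 was the highest for Ppargc1a (9.088, next 8.642; ratio 0.582).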

How the results depend on the processing

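The number of all genes called, 1141 as deposited, was 731 after median centring, 607 within animal numbers 6 and below, 1 within numbers 8 and above (where the lone control is assumed to have the spread of the high-dosed group), and 323 to 1410 with single arrays left out, the lowest without control 1. Members called higher, 1 as deposited, were 0 with the mean of probe sets, 2 with animal number as a block and 0 within numbers 8 and above. Members called lower, 0 as deposited, were 2 after quantile normalization, 1 with the mean of probe sets, 1 within numbers 6 and below, and 0 to 4 with single arrays left out, the 4 without control 9.

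The small-subunit median was -0.046 after quantile normalization, -0.091 within numbers 6 and below, 0.040 within numbers 8 and above, and -0.086 to 0.011 with single arrays left out, the lowest without control 9. The large-subunit median was -0.054, -0.069 and 0.053 in the same settings, and -0.057 to 0.0062. The large-minus-small difference was -0.018 within numbers 8 and above and -0.0069 to 0.015 with single arrays left out. The causes were not tested.

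Mrpl57 was called in 21 of 23 other settings. The exceptions were the mean of probe sets (0.15, limma adjusted p = 0.155) and numbers 8 and above (0.33, limma adjusted p = 0.131). Of the values of named genes under alternatives, 649 kept direction and side of the threshold, 56 lost the call, 6 gained one and 24 changed sign, none of these 24 called with either sign. Within numbers 8 and above the sign turned for Mrps22 (0.023), Mrpl27 (0.065), Mrpl33 (0.070), Mrpl45 (0.036), Mrpl12 (-0.076) and Mrpl40 (0.066). With the mean of probe sets it turned for Mrpl12 (-0.10), Mrpl40 (0.080) and Mrps14 (-0.099). After quantile normalization and median centring it turned for Mrps16 (-0.00019 and -0.0031) and Mrpl12 (-0.013 and -0.014), and within numbers 6 and below for Mrps16 (-0.00053) and Mrps30 (-0.14). With single arrays left out it turned for Mrps16 (range -0.0041 to 0.053, below 0 without control 9), Mrps30 (-0.086 to 0.098, below 0 without control 9), Mrps14 (-0.012 to 0.10, below 0 without control 2 or 9), Mrpl12 (-0.024 to 0.034, below 0 without control 9 or high-dosed animal 2 or 6) and Mrpl40 (-0.038 to 0.013, above 0 without control 1 or high-dosed animal 2). No paired analysis was possible because the groups share only animal number 2. With 3 control arrays, a difference smaller than a gene's own interval half-width cannot be told from the spread between animals. Over members that half-width had a median of 0.14 in log2 and ran from 0.10 to 0.40.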
